A study of Mus musculus with 29 samples.

Results

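Small intestinal tissue was set against isolated crypts of control mice, using 8 of the 29 libraries of the series. The members were chosen by their labels, not by a measured value: the 4 libraries of non-tumor tissue from H2B/p53flox/flox mice (which the labels also call adjacent normal tissue, although these control mice have no tumor library) and the 4 libraries of epithelial crypts from H2B flox/flox mice. All mice are C57BL/6, and both groups of controls carry floxed alleles. The crypt mice were 52 weeks old, while the labels used here attach no age to the tissue mice. Each library has its own number in its title, taken here as that of a mouse, tissue 1315, 1316, 1320 and 1321 and Crypt_970, Crypt_971, Crypt_972 and Crypt_981, so n is 4 a group, and values are given in that order throughout. The same contrast was read a second time in libraries that share no sample with the first, 4 of adjacent tissue from H2B/p53dIEC mice against 4 of crypts from H2BdIEC mice, whose names stand for deletion in intestinal epithelial cells. What drives that deletion is not given in the sources used here. Values of 3 control organoid libraries, of genotype H2B/p53flox/flox, are set beside some results. The comparison asks which genes separate intestinal tissue from its crypt epithelium, and every fold change is tissue minus crypts.

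A crypt is a pit of epithelium in the intestinal wall. Stem cells and Paneth cells sit at its base with dividing progenitors above them, and the daughter cells move up onto the villus as enterocytes, goblet, enteroendocrine and tuft cells. The wall around the crypt holds fibroblasts, blood and lymph vessels, immune cells, enteric neurons with their glia, and layers of smooth muscle. Tissue RNA is therefore a mixture, in which fewer cells of a type and less RNA per cell cannot be told apart.

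Gene counts per library ran from 23118463 to 25913155 in crypts and from 26853485 to 41504298 in 3 tissue libraries. Tissue 1320 held 401365, so that 1 count there is worth 2.29 CPM (counts divided by the TMM-scaled library size, in parts per 1e6). Rnaseh2b, whose product is the B subunit of the RNase H2 enzyme (ENSMUSG00000021932, chr14:62292589-62372992 on GRCm38), measured 12.1, 11.4, 20.6 and 10.8 CPM in tissue and 16.6, 7.97, 8.78 and 16.4 CPM in crypts. Trp53, which encodes p53, measured 42.3, 33.4, 39.0 and 37.9 CPM in tissue and 36.3, 32.0, 35.3 and 32.5 CPM in crypts. Neither passed the test between tissue and crypts with all 8 libraries (log2 fold changes -0.05 ± 0.27, adjusted p = 0.887, and 0.16 ± 0.11, adjusted p = 0.204), but Trp53 did without tissue 1320 (0.26, adjusted p = 0.0466). In the mutant libraries Rnaseh2b averaged 3.33 CPM in adjacent tissue and 2.58 CPM in crypts. Genotype, count set (crypts and tissue were counted on different lists of gene IDs) and, in part, sex split with the groups and cannot be told apart from them. The labels used here give no intestinal segment for the tissue, and region is read below from marker genes alone. It cannot be told apart from the groups either. No value within a count set exists, because each set holds 1 of the 2 sample types. The Y-linked gene Ddx3y stood at 0.633, 0.183, 0 and 0.0789 CPM in tissue and 50.5, 55.9, 51.6 and 0 CPM in crypts, and Xist, the RNA of the inactive X chromosome, at 369, 251, 262 and 329 and 1.22, 1.54, 1.62 and 1094 CPM. Libraries Crypt_970, Crypt_971 and Crypt_972 thus carry Y transcripts, while Crypt_981 and all 4 tissue libraries carry Xist. Mitochondrial genes took 4.33 to 5.09% of counts in Crypt_970 to Crypt_972, 10.4% in Crypt_981 and 2.34 to 2.92% in tissue.

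Of 15869 genes tested with edgeR's quasi-likelihood test, 4514 (28.4%) were higher and 6098 (38.4%) lower in tissue at an adjusted p under 0.05. Among them 1754 (11.1%) were at least 4-fold higher and 1507 (9.5%) at least 4-fold lower. The median log2 fold change over all genes tested was -0.13, and the scaling sets part of the split between directions. With upper-quartile factors the median was 0.06, the calls were 5614 higher and 4860 lower, and the share of calls that were higher went from 42.5% to 53.6%. Without tissue 1320, 17098 genes passed the filter on low counts, 5989 were higher and 5634 lower, 2658 (15.5%) were at least 4-fold higher and 1589 (9.29%) at least 4-fold lower. In the plot of fold changes by gene list, the lists of muscle, neurons, vessels and matrix lie far to the right of the epithelial lists.

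**Figure D1:**
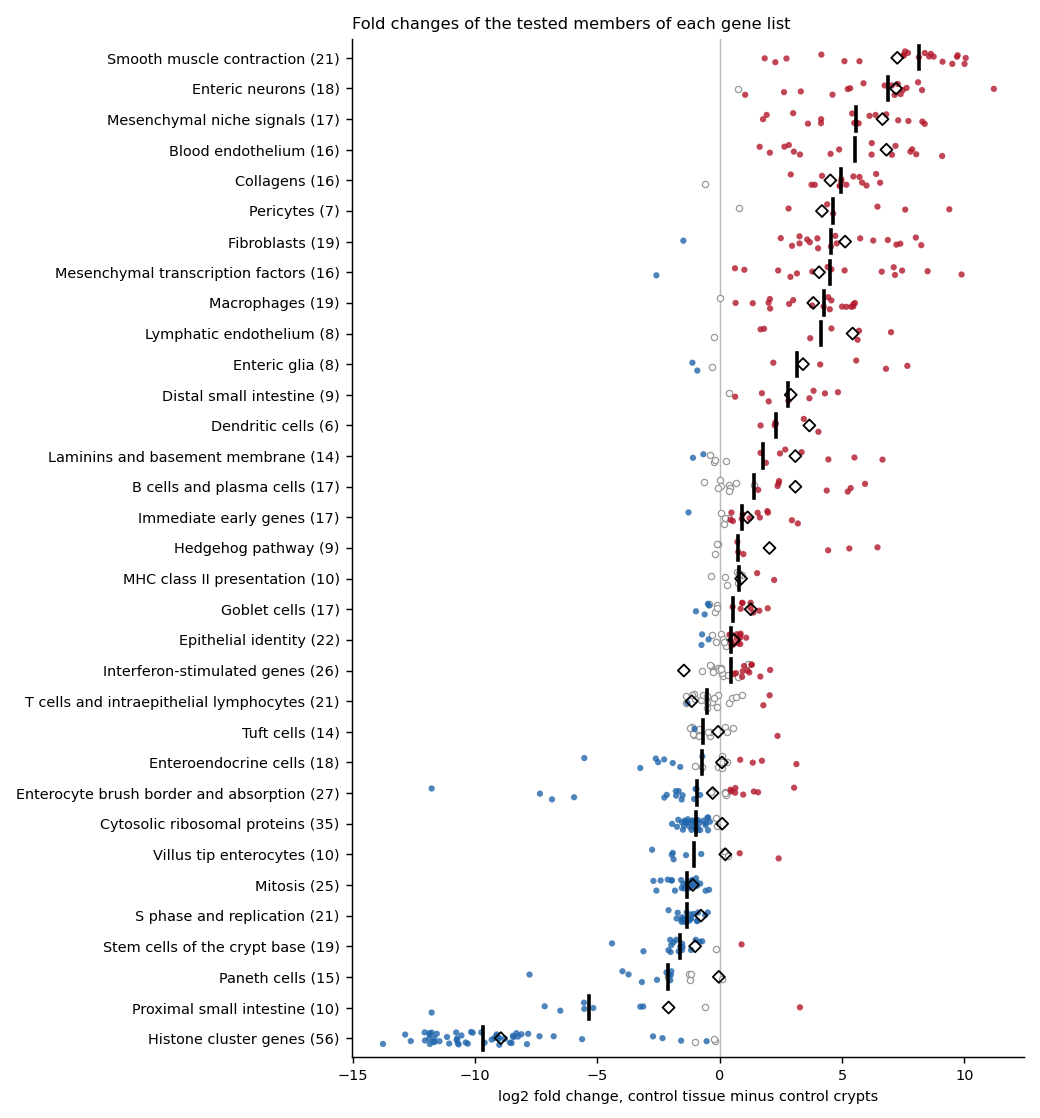
Log2 fold changes (control tissue minus control crypts, horizontal axis) of the tested members of 33 gene lists (vertical axis, number tested in brackets). Filled points passed the test (red higher, blue lower in tissue), open points did not, black bars are list medians, and diamonds are medians of the same lists in the mutant contrast. Smooth muscle contraction has the highest median at 8.14 and histone cluster genes the lowest at -9.67.

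Smooth muscle genes gave the largest increases. All 21 listed genes of contraction were higher in tissue, 20 of them at least 4-fold, against 11.1% of all genes tested, with a median log2 fold change of 8.14 here and 7.25 in the mutant contrast. Their summed level was 8507 to 13017 CPM in tissue and 529 to 612 CPM in crypts. Acta2, the alpha-actin of smooth muscle (ENSMUSG00000035783, chr19:34241090-34255590), measured 863, 1206, 899 and 846 CPM in tissue. In crypts it measured 2.53, 0.334, 0.675 and 0.0954 CPM (log2 fold change 10.004 ± 0.79, adjusted p = 2.04e-05). Tissue 1316 was the highest tissue library for all 21 genes of the list, and Crypt_970 the highest crypt library for 17. Actg2, the gamma-actin of enteric muscle, measured 537, 947, 594 and 485 CPM against 1.65, 0.250, 0.405 and 0.0477 CPM (10.05 ± 0.75, adjusted p = 1.37e-05). Des, the intermediate filament desmin, measured 589.8, 1025, 631 and 576 CPM against 2.32, 0.417, 0.540 and 0.0477 CPM (9.70 ± 0.81, adjusted p = 2.93e-05), and Myh11, the smooth muscle myosin heavy chain, 1002, 1641, 948 and 967 CPM against 8.74, 1.46, 3.20 and 0.191 CPM (8.38 ± 1.02, adjusted p = 0.000291). Library Crypt_981 held the least muscle RNA of the 4 crypt libraries for each of these 4 genes. The smallest p values in the list belonged to Tpm2 (7.52, adjusted p = 2.18e-09), Csrp1 (4.16, adjusted p = 2.35e-08), Cald1 (7.50, adjusted p = 6.3e-08) and Lmod1 (8.74, adjusted p = 6.43e-08). Cnn1, Tagln, Myl9 and Synm were also among the 10 largest increases of protein-coding genes, at 9.72, 9.50, 9.11 and 8.14.

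The promoters of 2 of these genes are shown because muscle genes are known to be driven through the CArG box, the site bound by serum response factor. Each run holds the 300 bases around the RefSeq start on GRCm38.p6, at chr19:34255324-34255623 (minus strand) and chr2:156775214-156775513 (plus strand), and capitals mark CArG boxes with at most 1 C or G in the A and T core, searched on both strands.
Acta2: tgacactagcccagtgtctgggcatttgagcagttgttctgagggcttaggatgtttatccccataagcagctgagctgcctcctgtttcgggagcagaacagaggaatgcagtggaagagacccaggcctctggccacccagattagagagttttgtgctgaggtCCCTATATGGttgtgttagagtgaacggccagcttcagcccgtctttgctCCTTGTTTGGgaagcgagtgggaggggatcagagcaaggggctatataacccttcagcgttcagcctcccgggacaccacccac
Myl9: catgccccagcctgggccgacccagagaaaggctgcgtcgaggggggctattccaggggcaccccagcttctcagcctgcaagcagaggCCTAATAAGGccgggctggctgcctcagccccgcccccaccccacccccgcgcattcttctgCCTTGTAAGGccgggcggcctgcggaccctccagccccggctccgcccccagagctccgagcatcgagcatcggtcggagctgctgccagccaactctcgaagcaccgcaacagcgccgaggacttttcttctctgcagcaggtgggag
Each of the 2 windows holds 2 such boxes. Of the 17 listed muscle genes with a promoter sequence, 4 hold one (Acta2, Jph2, Myl9 and Synm), against 9.98% of 32851 promoter windows of the same length. The box with no C or G in its core occurs in 1 of the 17 (Myl9) and in 1.63% of all windows. A match describes letters in the window, not a bound site.

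Pericytes wrap small vessels. Of 7 pericyte genes tested 6 were higher, all 6 at least 4-fold, against 28.4% and 11.1% of all genes, with a median of 4.64. Rgs5 measured 372, 526, 273 and 338 CPM in tissue and 1.48, 0.292, 0.450 and 0 CPM in crypts (9.38 ± 0.71, adjusted p = 1.5e-05), and the channel genes Abcc9 and Kcnj8 rose by 7.58 and 6.45. Interstitial cells of Cajal, the pacemaker cells of gut muscle, were read from 3 genes. Etv1 was higher (3.02 ± 0.29, adjusted p = 3.64e-06), Ano1 was higher with overlapping libraries (17.8, 30.6, 25.2 and 17.0 against 6.50, 4.21, 6.35 and 17.4 CPM), and Kit did not pass (-0.34 ± 0.21, adjusted p = 0.185).

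The extracellular matrix of the stroma was nearly all higher in tissue. Of 16 collagens tested 15 were at least 4-fold higher, against 11.1% of all genes, with a median of 4.97. Their summed levels were 769 to 1154 CPM in tissue and 11.3 to 51 CPM in crypts. Col1a1, the main fibrillar collagen chain, measured 63.4, 76.4, 43.6 and 54.2 CPM against 4.01, 1.38, 2.07 and 0.572 CPM (4.93 ± 0.48, adjusted p = 3.73e-05), and Col1a2 91.1, 108, 50.5 and 73.8 CPM against 5.11, 2.09, 3.33 and 0.191 CPM (4.97 ± 0.67, adjusted p = 0.000436). Among the crypts both were lowest in Crypt_981 and highest in Crypt_970. Basement membrane genes divided: 8 of 14 were higher and 2 lower, against 28.4% and 38.4% of all genes. Lamb1 (2.68 ± 0.13, adjusted p = 3.24e-08) and Sparc (6.65 ± 0.52, adjusted p = 1.12e-05) were higher, while the proteoglycan genes Agrn and Hspg2 were lower, at 131, 119.6, 139.9 and 129 against 216, 234, 201 and 169 CPM (-0.67 ± 0.11, adjusted p = 0.000308) and 38.9, 52.4, 41.3 and 40.0 against 106, 105, 99.3 and 60.7 CPM (-1.09 ± 0.18, adjusted p = 0.000327). In the mutant contrast Agrn was again lower (-0.95 ± 0.15, adjusted p = 0.000304) and Hspg2 did not pass (0.04 ± 0.21, adjusted p = 0.879).

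Fibroblast genes followed the collagens, with 18 of 19 higher, all 18 at least 4-fold, and 1 lower, against 28.4%, 11.1% and 38.4% of all genes. Pdgfra, the receptor that marks villus and crypt fibroblasts, measured 37.2, 35.6, 22.9 and 30.9 CPM in tissue and 0.675, 0.626, 0.36 and 0 CPM in crypts (6.27 ± 0.46, adjusted p = 2.64e-06). The matrix genes Ogn, Postn, Mgp and Lum rose by 8.24, 8.01, 7.22 and 6.87 on the log2 scale. Fbln1, a matrix glycoprotein, was the exception, at 68.3, 48.1, 84.9 and 47.8 CPM in tissue and 134, 196, 148 and 178 CPM in crypts (-1.48 ± 0.19, adjusted p = 4.4e-05), and it was lower in the mutant contrast too (-1.26 ± 0.25, adjusted p = 0.00144). Control organoids, cultures of epithelium alone, held 87.1 to 107 CPM of Fbln1 and 0.0599 to 0.116 CPM of Pdgfra, without TMM scaling.

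Signals that stromal cells send to the crypt were low in isolated crypts. All 17 niche genes tested were higher in tissue, 15 of them at least 4-fold, against 28.4% and 11.1% of all genes. Their median was 5.58, with summed levels of 199.6 to 296 CPM in tissue and 3.05 to 8.70 CPM in crypts. Dkk3, of the Dickkopf family, measured 26.1, 31.2, 18.4 and 25.8 CPM in tissue and 0.760, 0.250, 0.675 and 0.668 CPM in crypts (5.50 ± 0.27, adjusted p = 4.01e-08). No crypt library reached a tissue library for Dkk3, but the share of all genes without overlap is not given here. Wnt5a, a noncanonical WNT ligand, rose by 4.14 (8.66, 11.7, 11.5 and 11.6 against 0.802, 0.668, 0.585 and 0.334 CPM). Dkk2 had 1 count in all crypts together, a ratio of 451-fold, with a 95% counting interval of 80.9 to 17809. Rspo1, an R-spondin that amplifies WNT signals, was higher (3 ± 0.62, adjusted p = 0.00145) with 0 counts in tissue 1320. Rspo2, at 1.11, 1.32, 0 and 0.762 against 0.0844, 0, 0.0450 and 0 CPM, did not pass the filter on low counts and was not tested.

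Of 12 niche signals that the epithelium itself makes 5 were higher and 4 lower, near the shares of 28.4% and 38.4% over all genes, with a median of 0.41. Wnt3, the Paneth cell WNT, was lower (1.33, 1.17, 0 and 1.18 against 9.20, 4.09, 11.5 and 7.49 CPM, -2.73 ± 0.35, adjusted p = 3.4e-05), as were the Notch ligands Dll1 (-1.48 ± 0.16, adjusted p = 9.37e-06) and Jag1 (-1.61 ± 0.17, adjusted p = 7.93e-06). Egf was lower (-1.70 ± 0.37, adjusted p = 0.00175), while the related ligand Ereg was higher, at 46.8, 29.3, 36.7 and 41.7 CPM against 4.64, 1.46, 4.01 and 2.91 CPM (3.58 ± 0.32, adjusted p = 6.33e-06). Hedgehog signals run from epithelium to stroma. The epithelial ligand Ihh was higher in tissue (109, 63.0, 87.2 and 77.0 against 47.2, 53.7, 52.7 and 49.0 CPM, 0.72 ± 0.15, adjusted p = 0.00135), as were the stromal factor Gli2 by 5.30 and the inhibitor Hhip by 6.45. In all, 6 of 9 tested pathway genes were higher and none lower, against 28.4% and 38.4% of all genes. Shh was at or under 0.459 CPM in every library and was not tested.

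Of 16 transcription factor genes of gut mesenchyme tested 15 were higher and 1 lower, against 28.4% and 38.4% of all genes. Their median was 4.49. Foxf1, the Hedgehog target in gut mesenchyme, measured 15.5, 20.8, 11.5 and 14.9 CPM against 0.127, 0.0417, 0.0900 and 0.191 CPM (7.16 ± 0.32, adjusted p = 2.18e-08), and Nkx2-3, a factor of gut mesenchyme and its vessels, 10.5, 11, 4.59 and 11.6 against 0.0422, 0.0834, 0.0450 and 0.0477 CPM (7.45 ± 0.34, adjusted p = 2.36e-08). Hand2 had 1 count in all 4 crypt libraries, a ratio of 1340.4-fold, with a 95% counting interval of 241 to 52944. Prrx1 was the member that fell, at 1.35, 3.19, 2.29 and 1.76 CPM in tissue and 9.29, 21.6, 7.56 and 11.4 CPM in crypts (-2.59 ± 0.41, adjusted p = 0.000269).

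Endothelial genes were low in crypts. All 16 blood endothelial genes tested were higher, 15 at least 4-fold, against 28.4% and 11.1% of all genes. Their median was 5.54, and 6.81 in the mutant contrast. Kdr, the VEGF receptor, measured 11.3, 7.44, 9.18 and 14.1 CPM against 0.0844, 0.0417, 0.0900 and 0.0954 CPM (7.04 ± 0.36, adjusted p = 5e-08), and Pecam1 23.4, 17.8, 20.6 and 22 CPM against 2.45, 2.63, 2.39 and 1.15 CPM (3.28 ± 0.24, adjusted p = 6.01e-07). Plvap, of fenestrated capillaries, rose by 7.18 and Cdh5, the endothelial cadherin, by 6.21. Of 8 lymphatic genes 7 were higher, against 28.4% of all genes. Flt4, the lymphatic VEGF receptor, measured 11.6, 5.02, 4.59 and 7.57 against 0.338, 0.209, 0 and 0.0477 CPM (5.63 ± 0.58, adjusted p = 9.66e-06), and Lyve1 22.2, 10.7, 4.59 and 13.1 against 3.67, 4.67, 4.68 and 3.43 CPM (1.81 ± 0.28, adjusted p = 0.000165), where tissue 1320 overlapped with the crypts. The summed lymphatic level was 34.4 to 88.8 CPM in tissue and 8.85 to 11.8 CPM in crypts.

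Enteric neurons were the list with the second highest median. Of 18 genes tested 17 were higher, 16 at least 4-fold, against 28.4% and 11.1% of all genes. The median of 6.89 becomes 5.6 when the 3 genes without a count in crypts are set to their lower bounds. The neuropeptide Vip measured 22.2, 19.8, 25.2 and 22.4 CPM in tissue and 0.169, 0.0417, 0.0450 and 0 CPM in crypts (8.27 ± 0.36, adjusted p = 1.87e-08). Prph, a neuronal intermediate filament, measured 11, 17.0, 2.29 and 13.0 against 0.0844, 0.125, 0.0450 and 0.0477 CPM (7.28 ± 0.43, adjusted p = 1.53e-07), and Snap25, of synaptic vesicle fusion, 11.7, 14.9, 11.5 and 11.3 against 1.10, 1.46, 1.08 and 1.38 CPM (3.31 ± 0.20, adjusted p = 1.88e-07). The 3 genes without a crypt count, named after their values were seen, are the neuropeptide genes Gal (at least 332-fold higher) and Npy (at least 29.6-fold higher) and the transcription factor gene Phox2a (at least 25.5-fold higher), each against a floor of 3 counts over the group. Glial genes passed the filter less fully: 8 of 13 were tested, 5 higher and 2 lower, against 28.4% and 38.4% of all genes. Ngfr had 3 counts in the crypts, a ratio of 239.8-fold, with a 95% counting interval of 82.1 to 1163. L1cam (-0.91 ± 0.22, adjusted p = 0.00379) and Gfra3 (-1.11 ± 0.29, adjusted p = 0.00534) were lower. The summed level of the glial list was 753 to 813 CPM in tissue and 752 to 1077 CPM in crypts. Not every listed gene is specific to glia. Without tissue 1320, 12 glial genes were tested and 9 were higher, and 9 were also higher without any 1 of the crypt libraries.

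Immune genes divided by cell type. Macrophage genes were higher in tissue in 18 of 19 cases, against 28.4% of all genes, with a median of 4.25. Their summed levels were 532 to 909 CPM in tissue and 144 to 166 CPM in crypts. C1qb, which encodes a chain of complement C1q, measured 25.3, 49.8, 32.1 and 29.1 CPM in tissue and 0.718, 1.29, 0.585 and 0.477 CPM in crypts (5.46 ± 0.34, adjusted p = 3.6e-07), and its partner C1qc was higher by 5.46. Csf1r, the receptor macrophages need to survive, measured 44.6, 66.7, 29.8 and 48.1 against 2.41, 3.25, 1.94 and 0.811 CPM (4.56 ± 0.37, adjusted p = 5.48e-06), and Cx3cr1 rose by 5. All 6 dendritic cell genes tested were higher, against the same share, among them Itgax (2.25 ± 0.29, adjusted p = 4.45e-05) and Clec9a (3.44 ± 0.41, adjusted p = 2.03e-05).

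Plasma cell transcripts were high in tissue. Igha, the constant region of the IgA heavy chain, measured 1572, 1454, 1689 and 4102 CPM in tissue and 74.7, 101, 19.6 and 20.5 CPM in crypts (5.35 ± 0.78, adjusted p = 0.000663). Igkc measured 758, 827, 844 and 2247 against 29.4, 30.4, 9.68 and 6.87 CPM (5.94 ± 0.75, adjusted p = 0.000293), and Jchain, which joins IgA dimers, 319, 265, 328 and 781 against 17.5, 16.9, 5.99 and 4.82 CPM (5.23 ± 0.65, adjusted p = 0.000274). Tissue 1321 was the highest for all 3, and Crypt_970 and Crypt_971 were above Crypt_972 and Crypt_981. Of 17 B and plasma cell genes 8 were higher and none lower, against 28.4% and 38.4% of all genes. Library Crypt_970 carried the highest Cd79a and Cd4 of its group, and without it the count of higher B and plasma cell genes was 17.

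For T cells few genes passed the test, and libraries of a group differed widely. Of 21 T cell and intraepithelial lymphocyte genes 2 were higher and 1 lower, below the shares of 28.4% and 38.4% over all genes. The median was -0.50. Summed levels were 43.8 to 427 CPM in tissue and 111 to 474 CPM in crypts. Tissue 1316 was the highest tissue library for 20 of the 21 genes, and Crypt_970 the highest crypt library for 20. Cd3e measured 1.09, 12.6, 16.1 and 4.58 CPM in tissue, highest in the shallow tissue 1320, and 7.89, 4.88, 5 and 2.34 CPM in crypts (0.39 ± 0.74, adjusted p = 0.666). Il7r and Cd4 were higher (1.78 ± 0.51, adjusted p = 0.01, and 2.04 ± 0.73, adjusted p = 0.0364), and Cd244a was lower (-1.32 ± 0.31, adjusted p = 0.00266). The summed level of MHC class II presentation genes ranged from 898 to 9561 CPM in tissue and from 2375 to 3673 CPM in crypts. H2-Aa measured 146, 2147, 640.1 and 1120.1 CPM in tissue and 688, 625, 601 and 497 CPM in crypts (0.76 ± 0.70, adjusted p = 0.37), so tissue 1315 lies below every crypt library and tissue 1316 above. Of 10 genes in that list 2 were higher, against 28.4% of all genes, and 7 were higher without tissue 1315. None of the 10 neutrophil and eosinophil genes passed the filter on low counts with tissue 1320 and 2 did without it, both then higher. Of 8 mast cell genes 2 passed the filter, and S100a9 was at or under 0.371 CPM in the 8 control tissue and crypt libraries. In the mutant contrast 5 neutrophil and eosinophil genes were tested and all 5 were at least 4-fold higher, and S100a9 averaged 36.1 CPM in mutant adjacent tissue.

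Genes of the outer sheath and of fat varied among the tissue libraries. The mesothelial gene Upk3b measured 2.84, 19.9, 11.5 and 8.44 CPM in tissue and 1.77, 1.46, 1.80 and 0.429 CPM in crypts (2.92 ± 0.64, adjusted p = 0.00319), and 4 of 5 mesothelial genes were higher. Of 8 adipocyte genes tested 5 were higher and 1 lower, against 28.4% and 38.4% of all genes. Cfd, which encodes the adipocyte factor adipsin, measured 34.0, 14.7, 96.4 and 0.0789 CPM in tissue and 0.633, 0.0834, 0.180 and 0 CPM in crypts, so tissue 1321 was at the crypt level while the other three were not (6.74 ± 1.91, adjusted p = 0.0178). Fabp4 measured 60.7, 33.3, 75.7 and 7.83 against 1.18, 0.250, 0.450 and 0.0477 CPM (6.29 ± 0.97, adjusted p = 0.000899). The 1 adipocyte gene called lower lost its call without tissue 1320. Of 10 pancreatic genes 2 were tested, and Clps was lower (-2.19 ± 0.71, adjusted p = 0.0285), a call also lost without tissue 1320.

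**Figure D2:**
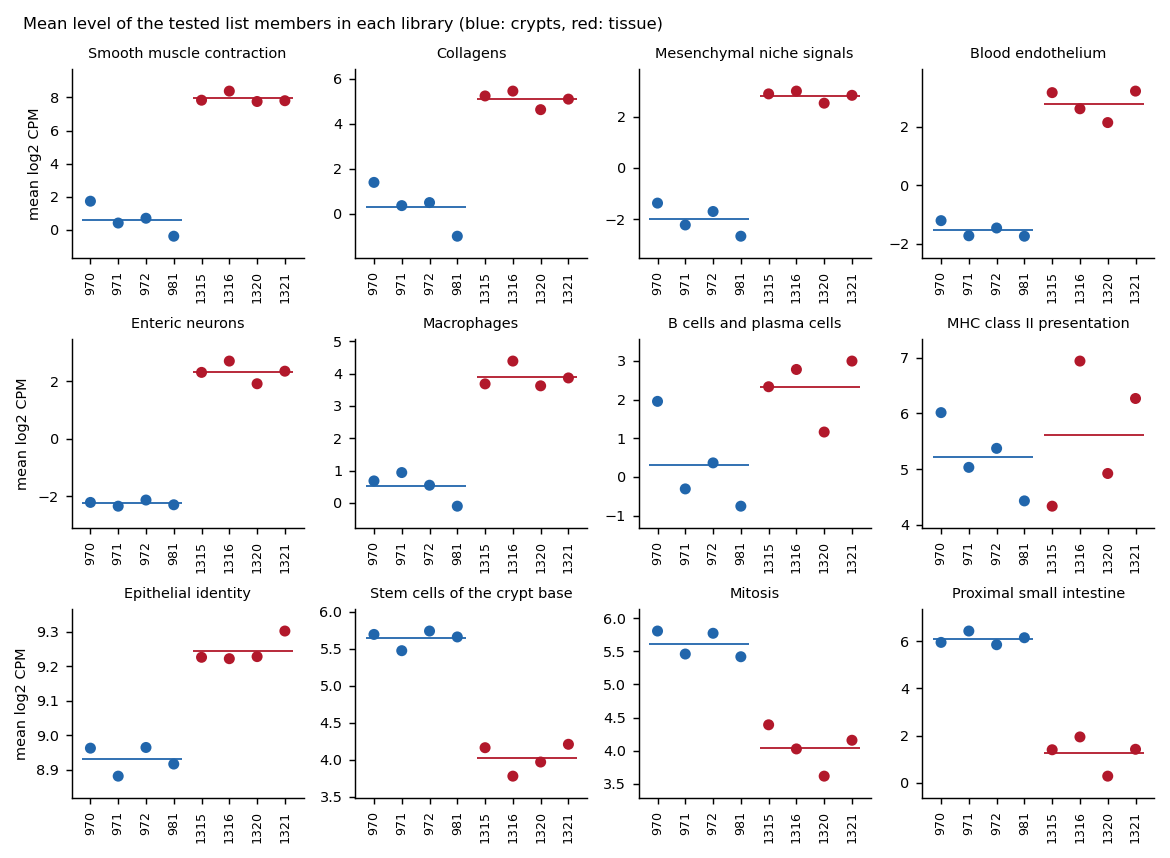
Mean log2 CPM over the tested members of 12 gene lists (vertical axes, which differ in range and do not start at 0) in each library (horizontal axis, mouse number), crypts in blue and tissue in red, with lines at the group means. Of the lists shown, those of MHC class II presentation and of B and plasma cells overlap between the groups, and all others, epithelial lists included, do not.

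General epithelial genes were present in both groups. Of 22 epithelial identity genes 13 were higher and 3 lower, none by 4-fold, against 28.4% and 38.4% of all genes called higher and lower. Their median was 0.47, with summed levels of 25541 to 29342 CPM in tissue and 20072 to 20765 CPM in crypts. Epcam, the epithelial adhesion molecule, measured 2664, 2838, 3022 and 2751 CPM in tissue and 1940.0, 1863, 1944 and 1903 CPM in crypts (0.56 ± 0.11, adjusted p = 0.000727). Cdh1, which encodes E-cadherin, did not pass (930.2, 1044, 1007 and 1004 against 1073, 947, 1000 and 766 CPM, 0.07 ± 0.12, adjusted p = 0.612). The claudins Cldn7 and Cldn3 were higher (1.08 ± 0.11, adjusted p = 7.16e-06, and 0.85 ± 0.09, adjusted p = 8.48e-06), while Cldn15 was lower (-0.74 ± 0.11, adjusted p = 0.000141). The splicing regulators Esrp1 and Esrp2 were lower as well (-0.45 ± 0.13, adjusted p = 0.00783, and -0.72 ± 0.20, adjusted p = 0.00873). The label of the crypts as epithelium stands beside these values: epithelial genes were high in all 8 libraries, while the sums of muscle and collagen genes were lower in every crypt library than in any tissue library.

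Genes of the crypt base were lower in tissue. Of 19 stem cell genes 17 were lower, 5 of them at least 4-fold, and 1 was higher, against 38.4% and 28.4% of all genes, with a median of -1.61 (-1 in the mutant contrast). Without tissue 1320, 2 stem cell genes were at least 4-fold lower. Olfm4, a secreted glycoprotein of crypt base cells, measured 40.3, 18, 18.4 and 37.9 CPM in tissue and 754, 628, 584 and 631 CPM in crypts (-4.40 ± 0.28, adjusted p = 6.73e-07). Lgr5, the R-spondin receptor that marks the stem cells, measured 6.83, 4.40, 9.18 and 6.39 against 23.2, 15.1, 19.4 and 24.5 CPM (-1.77 ± 0.21, adjusted p = 2.15e-05). Aqp4, Soat1 and Rnf43 were lower with the smallest p values (-3.11, -2.09 and -1.53). Tnfrsf19 was the member that was higher (8.73, 11.3, 11.5 and 6.36 against 5.32, 4.84, 4.64 and 4.48 CPM, 0.89 ± 0.21, adjusted p = 0.00289). In the mutant contrast Lgr5 did not pass (0.49 ± 0.35, adjusted p = 0.246), and it averaged 5.54 CPM in the mutant crypts.

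Cell cycle genes were lower in tissue. All 21 genes of S phase and all 25 of mitosis passed the test as lower (20 and 24 without tissue 1320), against 38.4% of all genes. The medians were -1.34 and -1.32. Mki67, which marks cycling cells, measured 85.2, 68.3, 68.8 and 74.7 CPM in tissue and 559.9, 455, 565 and 382 CPM in crypts (-2.71 ± 0.15, adjusted p = 9.16e-08). Top2a, which untangles chromosomes, measured 89.5, 75.8, 73.4 and 74.3 against 393, 321, 366 and 292 CPM (-2.12 ± 0.12, adjusted p = 1.3e-07), and Mcm2, of the replication helicase, 17.3, 14.5, 16.1 and 17.2 against 57.5, 52.0, 50.6 and 54.5 CPM (-1.72 ± 0.11, adjusted p = 1.89e-07). No library of one group reached the other for these 3 genes, but the share of all genes without overlap is not given here. The summed mitosis level was 514 to 645 CPM in tissue, 1584 to 2138 CPM in crypts and, without TMM scaling, 3407 to 3695 CPM in control organoids. In the mutant contrast 9 of 21 and 16 of 25 were lower and none was higher.

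Paneth cells release antimicrobial proteins at the crypt base. Of 15 genes tested 10 were lower in tissue, 8 at least 4-fold, and none was higher, against 38.4%, 9.5% and 28.4% of all genes. Lyz1, the Paneth lysozyme, measured 1560.4, 845, 954 and 458 CPM in tissue and 4923, 2691, 5601 and 4003 CPM in crypts (-2.17 ± 0.37, adjusted p = 0.000691), Mmp7 43.8, 32.5, 18.4 and 23.5 against 118, 92.8, 154 and 154 CPM (-2.02 ± 0.25, adjusted p = 6.54e-05) and Itln1 327, 379, 250.1 and 121 against 1475, 872, 1853 and 2179.8 CPM (-2.56 ± 0.41, adjusted p = 0.000573). The alpha-defensin gene Defa5 was at 0.131, 0.256, 0 and 0 CPM in tissue and 33.9, 11.2, 29.9 and 32.1 CPM in crypts (-7.77 ± 0.68, adjusted p = 1.21e-05). Alpha-defensins are near-identical copies, so reads may be split among them and single members are uncertain. In the mutant contrast 2 of 14 Paneth genes were lower and 1 higher, and Lyz1 did not pass (-0.15 ± 0.59, adjusted p = 0.847).

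Of 17 goblet cell genes 9 were higher and 4 lower, against 28.4% and 38.4% of all genes, and none by 4-fold. The secreted lectin gene Zg16 (4839.6, 3979, 4591 and 3663 against 1419, 1018, 719.9 and 1219 CPM, 1.96 ± 0.20, adjusted p = 6.85e-06) and the trefoil factor gene Tff3 (1650.2, 1432, 1597 and 1364 against 574, 367, 357 and 666 CPM, 1.62 ± 0.20, adjusted p = 3.21e-05) were higher. Clca1 was higher too (1.38 ± 0.33, adjusted p = 0.00487). Muc2, the main gel-forming mucin, was lower (2896, 2813, 3003 and 2457 against 5334, 3235, 3489 and 3515 CPM, -0.48 ± 0.17, adjusted p = 0.0268), as was Fcgbp, which binds it (-0.97 ± 0.23, adjusted p = 0.00272). Without tissue 1320, 1 goblet gene in place of 4 was lower, and Muc2 was among those that lost the call. Tuft cell genes mostly did not pass: of 14, Ptgs1 was higher (2.36 ± 0.40, adjusted p = 0.000826) and Trpm5 lower (-1.03 ± 0.36, adjusted p = 0.033), a call that was lost without tissue 1320.

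Of 18 enteroendocrine genes 4 were higher and 8 lower, near the shares of 28.4% and 38.4% over all genes. Large decreases were more frequent than that. At least 4-fold higher was 1 and at least 4-fold lower were 5, against 11.1% and 9.5% of all genes. The median was -0.72. Single hormones differed in both directions. Gip, a hormone of the upper small intestine, measured 1.16, 2.09, 0 and 1.18 CPM in tissue and 65.1, 83.1, 43.6 and 73.1 CPM in crypts (-5.53 ± 0.31, adjusted p = 2.54e-07), and Cck 1.22, 1.43, 0 and 1.39 against 10.8, 13.8, 10.3 and 15.4 CPM (-3.25 ± 0.23, adjusted p = 5.66e-07). Pyy, a hormone of the lower gut, measured 11.5, 20.3, 16.1 and 16.3 against 2.03, 0.835, 2.16 and 2.29 CPM (3.13 ± 0.31, adjusted p = 4.84e-06), and Nts, neurotensin, 59.0, 66.9, 59.6 and 55.1 against 22.4, 12, 20.6 and 18 CPM (1.73 ± 0.18, adjusted p = 6.71e-06). Chga and Chgb, granule proteins of all these cells, were lower (-1.92 ± 0.16, adjusted p = 1.72e-06, and -2.61 ± 0.22, adjusted p = 3.11e-06), while Sct and Gcg were higher (1.35 ± 0.15, adjusted p = 1.31e-05, and 0.84 ± 0.26, adjusted p = 0.0154).

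Log2 fold changes of enterocyte genes ranged from -11.77 to 3.04. Of 27 genes 8 were higher and 15 lower, against 28.4% and 38.4% of all genes. Lct, the brush border lactase, measured 0.371, 0.696, 4.59 and 0.841 CPM in tissue and 1987, 3379, 1859 and 1982 CPM in crypts (-11.77 ± 0.46, adjusted p = 3.75e-08). The fatty acid carrier Fabp1 measured 7.39, 9.23, 6.88 and 5.94 against 755, 1695, 846 and 1568 CPM (-7.34 ± 0.38, adjusted p = 2.6e-07), and the apolipoprotein Apoa4 35.9, 80.4, 96.4 and 23.8 against 3979.8, 9347, 5234 and 6341 CPM (-6.85 ± 0.57, adjusted p = 1.09e-05). Of the peptidase genes, Mme was lower (-2.16) while others were higher. Mep1a measured 2374, 2115, 2684 and 2149 against 385, 158, 320.0 and 269 CPM (3.04 ± 0.25, adjusted p = 1.9e-06) and Anpep 9873, 13949, 10398 and 10514 against 3554, 5112, 3239 and 3173 CPM (1.57 ± 0.19, adjusted p = 2.62e-05). Sis, the sucrase, was lower (-1.52 ± 0.15, adjusted p = 4.12e-06). Against the same shares of all genes, 2 of 10 genes of the villus tip were higher and 6 lower. Cdkn1a, the cell cycle inhibitor p21, had the largest increase of them, at 346, 416, 436 and 336 against 70.2, 79.0, 74.0 and 64.3 CPM (2.41 ± 0.12, adjusted p = 4.36e-08). Klf4, a factor of differentiated epithelium, was higher as well (0.82 ± 0.12, adjusted p = 0.000128), and Egfr was lower (-1.38 ± 0.14, adjusted p = 7.63e-06).

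Markers of position along the small intestine differed in opposite directions. Of 10 proximal genes tested 8 were lower in tissue, all 8 at least 4-fold, and 1 was higher, with a median of -5.35. Over all genes these shares were 38.4%, 9.5% and 28.4%. Gata4, the transcription factor of duodenum and jejunum (ENSMUSG00000021944, chr14:63198922-63271692), measured 0.676, 1.39, 0 and 1.66 CPM in tissue and 90.2, 131, 115 and 105 CPM in crypts (-6.51 ± 0.29, adjusted p = 6.78e-08). Slc40a1, the iron exporter, was the member that was higher (78.6, 80.1, 87.2 and 115 against 12.5, 8.35, 6.66 and 9.82 CPM, 3.28 ± 0.21, adjusted p = 3.6e-07). Of 9 distal genes 8 were higher, against 28.4% of all genes, with a median of 2.81. Fabp6, the bile acid carrier of the ileum, measured 5628, 9209, 10866 and 5368 CPM in tissue and 901, 1, 493 and 181 CPM in crypts (4.30 ± 1.51, adjusted p = 0.0403), with Crypt_971 the lowest by far, and the call was lost without tissue 1320 (adjusted p = 0.0557). Slc10a2, which takes up bile acids, measured 1569, 1134, 1101 and 1472 against 94.4, 1, 59.4 and 30.8 CPM (4.83 ± 1.13, adjusted p = 0.00781), and Slc51b, which exports them, 303, 352, 390.0 and 316 against 29.4, 20.7, 20.4 and 24.3 CPM (3.83 ± 0.15, adjusted p = 7.09e-09). Hoxb9, from the list of colon and posterior genes, was higher (4.88 ± 1.03, adjusted p = 0.00495), and 2 of the 12 genes in that list passed the filter.

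The Lct promoter is shown because Lct had the largest decrease among the genes named by the rule and GATA4 is known to act on it. The run covers chr1:128328269-128328568 on GRCm38.p6, minus strand, and capitals mark AGATAA or its reverse complement.
Lct: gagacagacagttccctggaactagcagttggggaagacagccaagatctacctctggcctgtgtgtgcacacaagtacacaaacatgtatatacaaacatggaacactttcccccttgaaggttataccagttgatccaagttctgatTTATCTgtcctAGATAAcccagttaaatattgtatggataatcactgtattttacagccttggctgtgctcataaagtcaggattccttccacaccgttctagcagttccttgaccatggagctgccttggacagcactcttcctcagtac
It holds the motif 2 times, once on each strand. Of 9 proximal genes with a promoter sequence, 3 hold it (Cck, Gip and Lct), as do 2 of 7 distal genes and 11.2% of all 32851 windows. The letters alone do not show binding.

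These genes also varied among tissue libraries of 1 genotype. In adjacent tissue 1349, 1322 and 1319, Fabp6 stood at 7706, 6047 and 6242 CPM, whereas adjacent tissue 1323 held 12.4 CPM. Gata4 stood at 1.13, 0.653 and 12.3 CPM in those 3 libraries and 92.4 CPM in 1323, and Lct at 0.437, 0.527 and 34.8 CPM and 562 CPM. Adjacent tissue 1319 was thus intermediate for Gata4 and Lct, although not for Fabp6. The median of the proximal list was -2.09 in that contrast and 4 of 11 genes were lower. Apoa4 averaged 10379.9 CPM in adjacent tissue and 9435 CPM in mutant crypts and did not pass (0.14 ± 1.12, adjusted p = 0.925). Fabp1 did not pass either (-2.93 ± 1.18, adjusted p = 0.0583). The part of region in the differences of enterocyte and enteroendocrine genes was not tested.

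**Figure D3:**
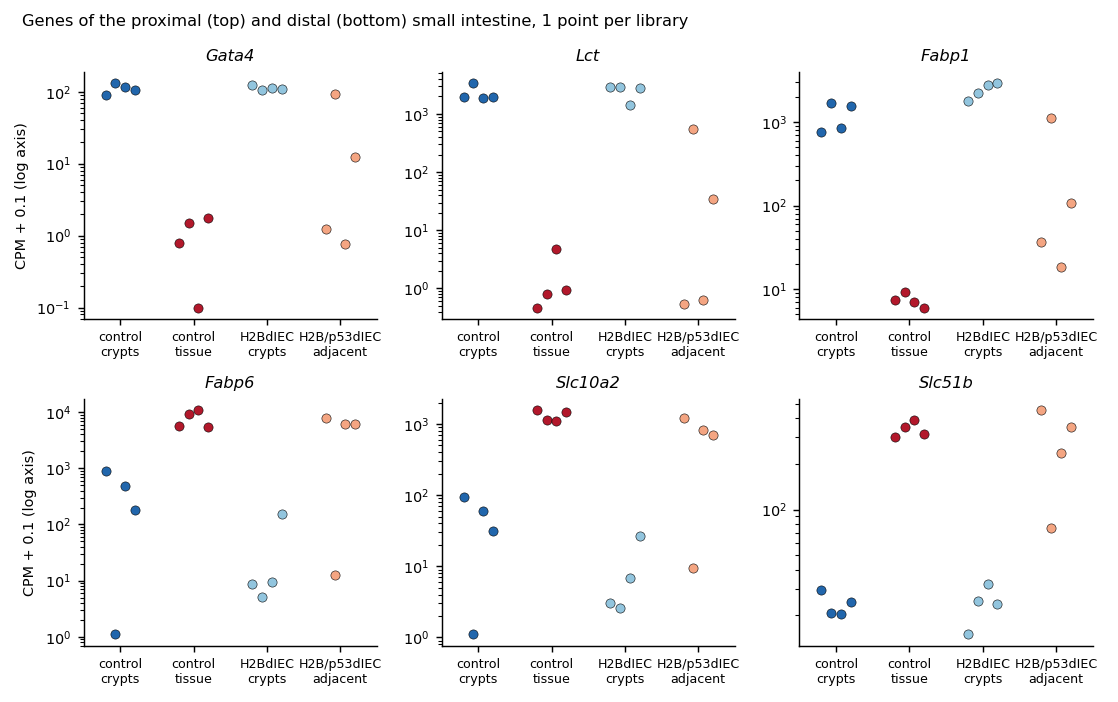
Normalised levels (CPM + 0.1, log axis) of 3 proximal genes (top) and 3 distal genes (bottom) in control crypts, control tissue, H2BdIEC crypts and H2B/p53dIEC adjacent tissue, with 1 point per library and the control and mutant contrasts scaled separately. Control tissue lies at 0 to 1.66 CPM of Gata4 and 5368 to 10866 CPM of Fabp6, and the 4 adjacent tissue libraries differ widely among themselves in Gata4, Lct and Fabp6.

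Response genes had medians nearer to 0 than muscle, vessel and neuron genes. Of 26 interferon-stimulated genes 11 were higher and none lower, against 28.4% and 38.4% of all genes, with a median of 0.46. Tissue 1316 was the highest tissue library for 23 of the 26. Summed levels overlapped, at 857 to 1982 CPM in tissue and 809 to 1201 CPM in crypts. The regulator Irf7 measured 157, 287, 246 and 167 CPM in tissue and 76.1, 74.1, 58.9 and 59.0 CPM in crypts (1.66 ± 0.20, adjusted p = 3.4e-05). Xaf1 and Cmpk2 were higher (2.06 ± 0.27, adjusted p = 7.56e-05, and 0.94 ± 0.12, adjusted p = 3.15e-05), and Oas1a did not pass (0.10 ± 0.18, adjusted p = 0.699). Of 14 chemokine genes 10 were higher, 6 at least 4-fold, and 1 lower (none lower without tissue 1320), with a median of 1.17. Over all genes these shares were 28.4%, 11.1% and 38.4%. Cxcl12, the stromal chemokine that holds lymphoid cells, measured 25.4, 26.8, 18.4 and 26.1 CPM against 0.0844, 0.0417, 0.0900 and 0 CPM (8.72 ± 0.31, adjusted p = 3.65e-09), while the epithelial chemokine Ccl25 differed by 0.38 ± 0.12, adjusted p = 0.0135. Immediate early genes, which respond within minutes of a stimulus, had a median of 0.90. They were higher in 12 of 17 cases and lower in 1, Myc (-1.27 ± 0.38, adjusted p = 0.0153), against 28.4% and 38.4% of all genes. Nr4a1 was the most changed (11.4, 5.28, 4.59 and 7.55 against 1.44, 0.584, 0.765 and 0.620 CPM, 3.19 ± 0.36, adjusted p = 1.48e-05), and Fos did not pass (308, 50.5, 163 and 71.5 against 107, 198, 125 and 91.0 CPM). Of 12 heat shock genes 4 were higher and 4 lower, near the shares over all genes. The chaperones Hspa8 and Hspd1 were lower (-1.58 ± 0.16, adjusted p = 5.73e-06, and -1.44 ± 0.10, adjusted p = 4.49e-07), and Hspb1, which smooth muscle also expresses, was higher (6.30 ± 0.41, adjusted p = 2.91e-07). Of 18 clock genes 7 were higher and 5 lower (2 lower without tissue 1320), also near those shares. Npas2 and Arntl were higher (1.48 ± 0.22, adjusted p = 0.000157, and 1 ± 0.26, adjusted p = 0.00733) and Per3 and Dbp, which peak at another time of day, lower (-2.34 ± 0.50, adjusted p = 0.0031, and -2.27 ± 0.77, adjusted p = 0.0332), with the call on Dbp lost without tissue 1320. The time of day at which tissue was taken is not given in the labels.

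Many of the large decreases lay in particular RNA classes. Of 56 histone cluster genes tested 53 were lower in tissue, 51 at least 4-fold, against 38.4% and 9.5% of all genes. Their median was -9.67, and -9.16 with 8 genes set to their bounds. Hist1h1e, a linker histone gene of the replication-dependent cluster, measured 0.458, 0.440, 0 and 0.342 CPM in tissue and 275, 240.5, 304 and 240.5 CPM in crypts (-9.32 ± 0.18, adjusted p = 8.96e-11), and Hist1h4h 0.480, 0.623, 0 and 0.421 against 246, 181, 237 and 217 CPM (-8.78 ± 0.20, adjusted p = 1.35e-10). Transcripts of these genes end in a stem-loop in place of a poly(A) tail. Histone cluster genes took 0.313 to 0.424% of counts in crypts, 0.0219 to 0.0299% in tissue and 0.00684 to 0.00775% in control organoids, where the mitosis sums were the highest of the 3 sample types. The part of library content in the histone difference was not tested.

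Several other classes of short or untailed RNA were lower in tissue as well. Of the genes tested, 36 of 37 snoRNA, 8 of 8 scaRNA, 10 of 10 snRNA and 10 of 11 misc_RNA genes were lower in tissue. So were 237 of 281 processed pseudogenes, against 38.4% of all genes. The 1 mitochondrial tRNA gene tested was higher in tissue (7.02 on the log2 scale). Misc_RNA genes took 0.578 to 1.09% of counts in crypts and 0.000496 to 0.000851% in tissue, and mitochondrial rRNA 3.15 to 8.51% and 0.211 to 0.407%. Both mutant groups showed the same contrast, with 0.846 to 1.98% and 7.31 to 12.2% in mutant crypts and 0.000581 to 0.000804% and 0.108 to 0.262% in adjacent tissue. Protein-coding genes took 82.6 to 91.3% of counts in crypts and 97.7 to 98.3% in tissue. Raver1, a protein-coding gene singled out after its values were seen, had no count in any control tissue or control organoid library and 87.2, 82.7, 99.1 and 66.4 CPM in control crypts. Mutant adjacent tissue held no Raver1 count either, and mutant crypts averaged 70.6 CPM. Library content, count set and sample type cannot be told apart here. When the fit was restricted to protein-coding genes outside the histone clusters, X, Y and mitochondria, an alternative added after seeing the data, 1549 genes were at least 4-fold higher and 442 at least 4-fold lower.

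**Figure D4:**
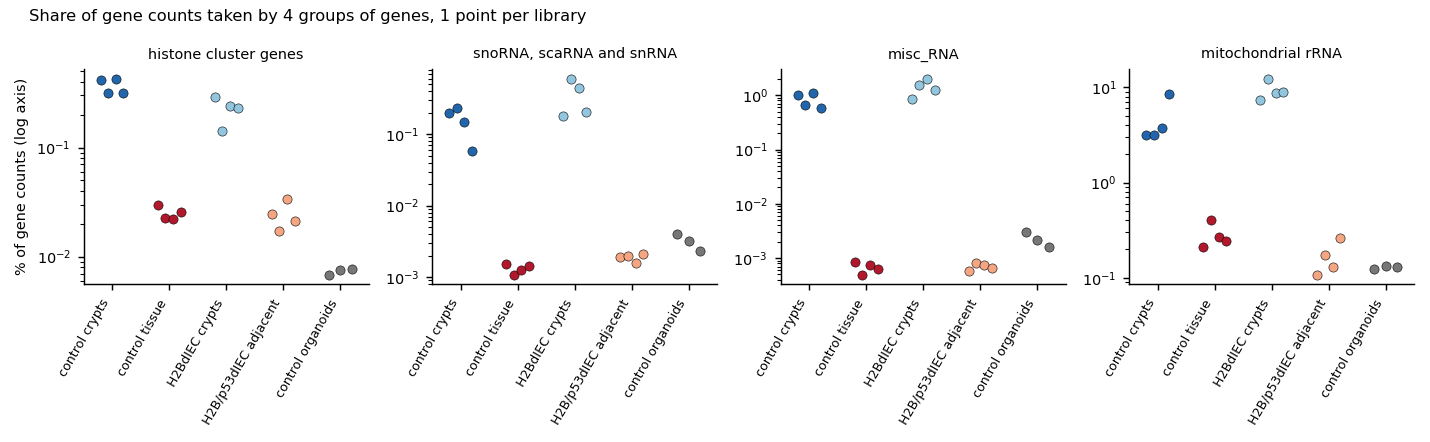
Share of gene counts (percent, log axis) taken by histone cluster genes, by snoRNA, scaRNA and snRNA genes, by misc_RNA genes and by mitochondrial rRNA genes in 5 groups of libraries, with 1 point per library. Both crypt groups lie above both tissue groups and the organoids in all 4 panels.

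Translation and respiration genes were also shifted. Of 35 cytosolic ribosomal protein genes 33 were lower in tissue and none higher, against 38.4% and 28.4% of all genes, with a median of -0.98. The mutant contrast gave 7 higher and 5 lower and a median of 0.10. Rps6 measured 131, 110.5, 133 and 111 CPM in tissue and 389, 329, 405 and 427 CPM in crypts (-1.69 ± 0.12, adjusted p = 4.13e-07). Ribosomal protein genes have many processed copies in the genome, so reads may be split among them. Of 12 mitochondrially encoded protein genes 7 were higher and 1 lower, against 28.4% and 38.4% of all genes, with a median of 0.76. In the mutant contrast 3 were higher and 4 lower, with a median of -0.15. In controls mt-Nd4 stood at 2365, 2030.1, 2095 and 1875 CPM in tissue and 408, 399, 476 and 847 CPM in crypts (1.97 ± 0.23, adjusted p = 2.76e-05). Library Crypt_981 was the highest crypt library for all 12 genes and for mitochondrial rRNA. The 10 largest decreases also held Dnase1 (-7.38 ± 0.59, adjusted p = 1.37e-05), a secreted nuclease, and Ugt2a3 (-7.12 ± 0.24, adjusted p = 3.65e-09), a glucuronosyltransferase.

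Most of the large differences recurred in the mutant contrast. It tested 16132 genes, of which 2588 (16%) were at least 4-fold higher and 1350 (8.37%) at least 4-fold lower in adjacent tissue than in crypts. Of the 1754 large increases in controls 1630 were tested there, and 1489 of these (91.3%) were again called and at least 4-fold higher, while 4 were called in the opposite direction. Of the 1507 large decreases 1283 were tested, 1041 (81.1%) were again at least 4-fold lower, and 3 were called higher. The 2 contrasts share no library but draw on the same 2 count sets, so set and sample type cannot be told apart in either. In the mutant contrast genotype splits with sample type as well, H2B/p53dIEC in tissue and H2BdIEC in crypts. Interferon-stimulated genes went apart: 1 of 26 was higher and 19 lower in the mutant contrast, with a median of -1.46. Oas1a measured 5.98 CPM in adjacent tissue and 25.1 CPM in mutant crypts (-2.06 ± 0.35, adjusted p = 0.000582). Of 5 erythroid genes 3 were lower in control tissue, against 38.4% of all genes. All 5 were at least 4-fold higher in mutant adjacent tissue, against 16% of genes there. Alas2, of heme synthesis, was called in both (-1.50 ± 0.33, adjusted p = 0.00183, and 3.5 ± 0.90, adjusted p = 0.00769). The difference between the 2 contrasts was not tested for any list.

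**Figure D5:**
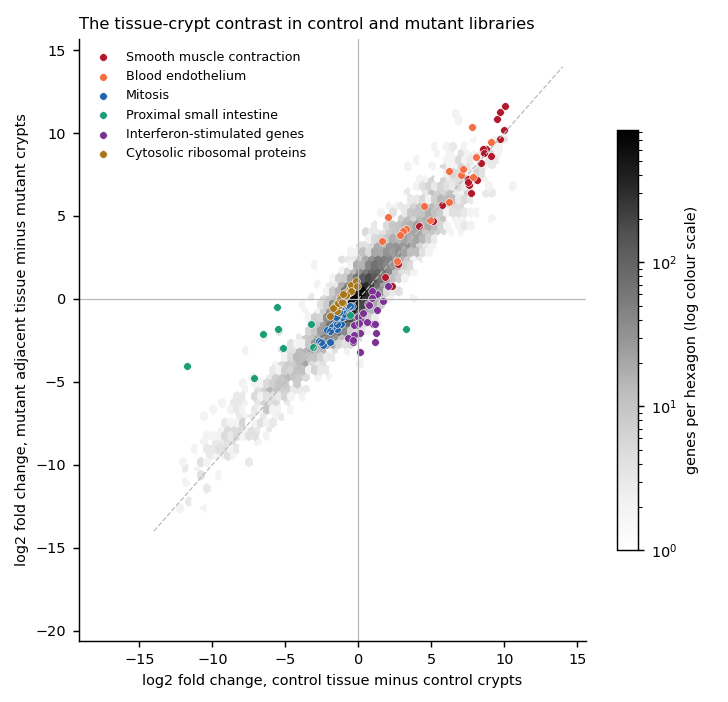
Log2 fold changes of genes tested in both contrasts, control tissue minus control crypts on the horizontal axis and mutant adjacent tissue minus mutant crypts on the vertical axis, with grey hexagons for all genes (log colour scale), coloured points for members of 6 lists and a dashed line where both are equal. Muscle and endothelial genes lie high in both, and 19 of 26 interferon-stimulated genes are lower on the vertical axis alone.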

How the data were processed

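The deposited values are counts of reads per Ensembl gene, 1 file per library. The authors made them with HTSeq after trimming with cutadapt 1.5 and 1.9 and Trimmomatic 0.36 and alignment with TopHat2 2.0.14 to GRCm38, per the submitters' processing notes. Libraries were strand-specific mRNA libraries, per the labels' protocols. The strand setting of the counting and the annotation release are not given in the sources used here.

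Crypt files list 47729 gene IDs and tissue files 49585. The 47469 in both were used, and 47224 of them matched GENCODE M21. Rows that name no gene (no feature, ambiguous or not unique) are listed in the crypt files alone, held 49.9 to 54.7% of the counts of the control crypt files, and were left out. Genes kept by filterByExpr were scaled by TMM and tested in 1 fit of the 8 libraries with edgeR 4.0.16 (quasi-likelihood, R 4.3.3, no covariates), with Benjamini-Hochberg adjustment over all genes tested. A gene was called at an adjusted p under 0.05. The ± after a log2 fold change is its standard error. Levels are CPM. The mutant contrast was scaled and tested separately, and organoids are described only. DESeq2 1.42.0 and other filters, scalings and left-out libraries were alternatives. The scripts were tested on simulated data. Library pairs of a group differed by a chi-square of at least 3.01 per degree of freedom, and no 2 held identical values.

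Precision follows depth, which was lowest in tissue 1320. Counting intervals cover counting error only, at 95%. Genes were named by rule: Rnaseh2b and Trp53, the 10 largest increases and decreases among protein-coding genes called at least 4-fold different, with no overlap between groups and mean log2 CPM not under 3, and, in each list, the 4 called members with the smallest p, the first 2 listed and up to 4 that go against the rest. Of 265 such genes 252 were tested and 236 called, and some are not reported here. Members and lists were chosen with earlier results of these data known.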

Additional observations from a re-analysis of the deposited data

Results flagged for a closer look

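Single libraries stood far from the other 3 of their group in 45 of 386 groups of 4 examined (list means and named genes, on the log2 CPM scale), where chance gives about 1 in 20. Tissue 1320, the shallow library, was apart in 14 of them. In it Alas2, Cck, Gfra3, Gip, Hist1h1e, Hist1h4h and Wnt3 had no count and stood at -3.66, the level a count of 0 is given. It was also apart for Cldn3 (9.18), Cxcl12 (4.20), Nkx2-3 (2.22), Postn (4.79) and Trpm5 (2.80), and for the means of villus tip genes (7.29) and histone cluster genes (-2.80).

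Tissue 1316 held more muscle RNA than the other tissue libraries, with a mean of 8.38 over the contraction genes and single values of 10.002 for Des, 10.68 for Myh11, 9.39 for Myl9, 9.45 for Tagln and 9.40 for Tpm2. It was apart as well for Hspb1 (4.54), Snap25 (3.90) and Esrp2 (4.08). Tissue 1321 was apart for the plasma cell genes Igha (12.002) and Igkc (11.13) and for the mean of epithelial identity genes (9.30), and tissue 1315 for Top2a (6.49) and Wnt5a (3.13).

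Among crypts, Crypt_981 was apart for the mean of mitochondrially encoded genes (7.13) and for Ccl25 (8.95), Hspa8 (10.44), Hspg2 (5.93), Pecam1 (0.29) and Upk3b (-0.98). Library Crypt_971 was apart for Lct (11.72), Pyy (-0.13), Defa5 (3.49), Kit (4.66), Dkk3 (-1.60), Ngfr (-3.66) and Nkx2-3 (-2.62). Library Crypt_970 was apart for Cd4 (2.83) and Muc2 (12.38), and Crypt_972 for Dkk2 and Hand2 (-3.01 each), where it held the 1 count of the group.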

How the results depend on the processing

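Of 236 named genes called, 204 kept direction and call in every planned setting that tested them. Large increases of muscle, matrix, vessel and neuron lists kept their direction in every setting run, and glial genes did so in all but the thinned one. Thinning every library to the depth of tissue 1320 gave 1459 genes higher, 1482 lower, 209 at least 4-fold higher, 190 at least 4-fold lower, medians of 0.59 (epithelial identity), 0.99 (goblet cells), 0.98 (tuft cells), 8.63 (mesenchymal niche), 0.69 (epithelial niche), 0.42 (hedgehog pathway), 1.03 (mesenchymal factors), 6.54 (blood endothelium), 7.58 (pericytes), -0.47 (enteric glia), 5.66 (B and plasma cells), -0.37 (adipocytes), 0.40 (circadian clock), -7.74 (histone cluster), members higher of 8 (collagens), 5 (laminins), 9 (fibroblasts), 1 (mesenchymal niche), 2 (epithelial niche), 1 (hedgehog pathway), 2 (mesenchymal factors), 1 (blood endothelium), 3 (pericytes), 0 (enteric glia), 5 (macrophages), 0 (T cells), 3 (B and plasma cells), 0 (MHC class II), 4 (interferon-stimulated genes), 3 (chemokines), 0 (adipocytes), 6 (immediate early genes), 0 (heat shock), 4 (circadian clock), and members lower of 10 (stem cells), 3 (enteroendocrine cells), 12 (S phase), 12 (mitosis), 30 (histone cluster). There the medians of tuft, glial and adipocyte genes reversed, as did Galnt12 (0.17). By its construction 6585 genes were tested in place of 15869, so lists lose members. A fit of all 5 groups gave 3297 at least 4-fold higher, medians of 0.54 (epithelial identity), 4.18 (enteric glia), 3.3 (chemokines), members higher of 9 (enteric glia), 0 (MHC class II), and members lower of 8 (enterocytes), 0 (erythroid cells). DESeq2's size factors gave a median of 0.55 (epithelial identity). The DESeq2 test gave 3394 at least 4-fold higher, 4507 at least 4-fold higher in the mutant contrast, 2121 at least 4-fold lower there, medians of 0.54 (epithelial identity), -0.27 (enteroendocrine cells), 4.43 (enteric glia), 3.25 (chemokines), -9.02 (histone cluster), members higher of 9 (enteric glia), and members lower of 1 (erythroid cells). TMM without mitochondrial genes gave a median of 0.58 (epithelial identity). A filter of 1 CPM in 4 libraries gave medians of 0.59 (epithelial identity), 6.35 (blood endothelium), members higher of 1 (MHC class II), 3 (adipocytes), and members lower of 1 (erythroid cells). A test against a 2-fold change, with every call counted, gave 2290 genes lower. Leaving out tissue 1320 and Crypt_981 together (added after seeing the data) gave medians of 0.53 (epithelial identity), 4.87 (mesenchymal factors), 5.07 (enteric glia), and members higher of 4 (tuft cells), 9 (enteric glia), 1 (T cells), 1 (MHC class II). No filter on low counts gave 8429 genes higher, 5395 at least 4-fold higher, 2504 at least 4-fold lower, medians of 4.16 (enteric glia), 3.16 (chemokines), -9.05 (histone cluster), and members higher of 9 (enteric glia), 17 (chemokines). Protein-coding genes alone (added after seeing the data) gave 442 at least 4-fold lower, medians of 0.54 (epithelial identity), 5.65 (enteric glia), members higher of 3 (enteric glia), 5 (B and plasma cells), and members lower of 1 (erythroid cells). Upper-quartile factors gave medians of 0.67 (epithelial identity), -1.41 (stem cells), 0.60 (epithelial niche), -0.78 (ribosomal proteins), and members higher of 8 (epithelial niche).

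Leaving out 1 library in turn gave 1810 to 2767 genes at least 4-fold higher, with 2767 without Crypt_970, 2691 without Crypt_972 and 2658 without tissue 1320. List medians then ranged over 0.43 to 0.58 (epithelial identity), -1.69 to -1.33 (stem cells), -0.96 to -0.67 (enterocytes), 7.88 to 9.53 (smooth muscle contraction), 1.85 to 2.37 (laminins), 0.86 to 1.14 (hedgehog pathway), 4.45 to 4.92 (mesenchymal factors), 5.51 to 6.81 (blood endothelium), 6.78 to 7.27 (enteric neurons), 3.14 to 5.10 (enteric glia), 2.08 to 3.3 (dendritic cells), -0.039 to 0.40 (circadian clock), -9.80 to -9.31 (histone cluster). Members called (lower for erythroid cells, otherwise higher) ranged over 1 to 4 (tuft cells), 5 to 9 (enteric glia), 1 to 2 (T cells), 7 to 17 (B and plasma cells), 1 to 7 (MHC class II), 3 to 7 (adipocytes), 1 to 4 (erythroid cells). The count rose to 17 without Crypt_970 for B and plasma cells and to 4 without Crypt_981 for tuft cells. For MHC class II it was 7 without tissue 1315 and 1 without Crypt_971, Crypt_972 or tissue 1316, and for adipocytes 7 without tissue 1321 and 3 without Crypt_971. The T cell count was 1 without tissue 1316 or without Crypt_971, Crypt_972 or Crypt_981, and the erythroid count 1 without Crypt_970 or Crypt_972 or tissue 1316 or 1321. Beyond the construction of a setting, the cause of these changes was not tested. Depth limits tissue 1320 most. No paired analysis was possible because the tissue and crypt mice share no mouse number.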

Other observations

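Of the mitochondrially encoded proteins, mt-Nd3 was the member lower in tissue, at 1, 1.83, 0 and 0.605 CPM in tissue and 5.91, 4.92, 5.31 and 7.54 CPM in crypts (-2.41 ± 0.36, adjusted p = 0.000122), while mt-Nd2 and mt-Cytb were higher (1.80 and 1.48). In the mutant contrast mt-Nd3 was again lower (-3.11 ± 0.40, adjusted p = 9.69e-05). Sparcl1, a matricellular protein gene related to Sparc, was among the 10 largest increases, at 272, 406, 184 and 271 CPM in tissue and 1.05, 0.626, 0.270 and 0 CPM in crypts (9.15 ± 0.62, adjusted p = 6.27e-06).

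Some members of epithelial lists differed in sign between the 2 contrasts, and the difference itself was not tested. Ccl9, an epithelial and myeloid chemokine, measured 10.8, 9.71, 2.29 and 6.31 CPM in control tissue and 14.3, 9.80, 13.6 and 15.1 CPM in control crypts (-0.61 ± 0.24, adjusted p = 0.0397), against means of 18.1 CPM in mutant adjacent tissue and 5.88 CPM in mutant crypts (1.62 ± 0.33, adjusted p = 0.00166). Galnt12, a mucin glycosyltransferase, gave -0.43 ± 0.17, adjusted p = 0.0388 in controls and 0.73 ± 0.20, adjusted p = 0.0101 in mutants. The control libraries of tissue and crypts overlapped for both genes, and both control calls were lost without tissue 1320 (adjusted p = 0.0916 for Ccl9 and 0.137 for Galnt12).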
